A study of Zea mays with 32 samples.

Results

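A set of 70 maize genes was expressed near the root tip and gave no read count in the slices farthest from it. The genes were chosen from 39510 gene identifiers (39336 of them in the Zm00001d series) by their own read counts. Each had a mean of at least 10 CPM (counts per 1000000 counts of a library) over slices 1 to 4 and 0 counts in every library of slices 13 to 16. Each also had a mean over slices 2 to 4 at or above its mean in slice 1, which keeps out genes that were highest at the very tip. The levels in slices 1 to 4, the absence from slices 13 to 16 and the order of slice 1 and slices 2 to 4 are therefore what chose the genes, and they are given here as a description with no test. Without the demand for silence at the back, 7255 genes met the other conditions, so the 70 were 0.965% of the front genes, and the remaining 7185 had at least 1 count at the back.

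The samples were roots of Zea mays, inbred line B73, wild type, 7 days after germination, with no treatment or transgene in any group. The roots were sectioned by hand into 16 slices, numbered from the tip, with 1 library of root A and 1 of root B per slice. A pair of roots was pinned side by side for cutting, so a slice has n = 2 roots, and slices of 1 root share that plant. In tests by slice, p-values measure the spread between these 2 roots. Tests that pool slices of a block measure also the spread among slices. Where blocks are kept apart by root, they measure the spread among slices of a block alone, shared over both roots. The test of root B against root A measures how the difference between them varies over slices. Each slice is a whole cross-section with all its cell types, and in such bulk samples fewer cells of a type and less RNA per cell cannot be told apart.

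A maize root grows from its tip: the cap covers a zone of dividing cells, behind which cells elongate and then mature, with root hairs and finished water-conducting vessels farther back. A cell left behind by the advancing tip passes through these states in order, so the level of a transcript by slice reads as its level by developmental age. Genes that are on near the tip and off in mature tissue are usually tied to a passing state, such as division, elongation or the first steps of cell differentiation. Which of these roles any of the 70 genes has is not given in the sources used here: the files pair no identifier with a name, and 0 of the 70 matched the reference gene table. For the same reason the labelled tissue could not be checked against marker genes, and genes are named by identifier only.

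The libraries held 1008082 to 5681180 counts, with a median of 1860465. The library of slice 8 of root A stood apart from all others. It held counts for 8303 genes, counts for 53.0% of the other front genes and counts for 7 of the 70 members (10.0%), against 21522 genes, 99.6% and 55 members (78.6%) in slice 8 of root B. Zeros of members in slice 8 of root A are for that reason given beside the values of root B. The libraries of slice 7 correlated across genes at 0.987 in log2(CPM + 1), against 0.657 to 0.963 in the remaining slices (genes are not independent replicates), and were also counted as 1 library in an alternative. The 8 libraries of slices 13 to 16 together held 19443530 counts, none of them from a member. A count of 0 at that depth allows up to 0.154 CPM (3 counts over the 8 libraries), and this limit covers counting error only.

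The members were moderately expressed near the tip. Their mean over slices 1 to 4 ran from 10.1 to 385 CPM with a median of 21.0 CPM. Set against the limit of 0.154 CPM, the member with the highest level was at least 2492-fold higher in slices 1 to 4 than in slices 13 to 16, and the member with the lowest at least 65.6-fold. In every library of slices 2 to 4, 56 members had a count and 27 had at least 10 CPM. Over 50% of the summed front level came from a single library for 11 members. All members together gave 21508 of the 9617514 counts in slices 1 to 4, 23066 counts in slices 5 to 8 and 1529 counts in slices 9 to 12.

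The limits that chose the genes fell within a continuous range of values. The lowest front means inside were 10.1 and 10.2 CPM, and 9 members lay between 10 and 11 CPM; the highest outside were 9.92 and 9.91 CPM, among 4 genes between 9 and 10 CPM. A further 26 genes met every other condition with 1 count at the back, 20 with 2 counts and 12 with 3. The lowest ratio of slices 2 to 4 over slice 1 inside was 1.01 and the highest outside was 0.992, and 6 members were under 2 times their slice 1 level. Of 140 genes with the front level and no count at the back, 70 were kept out for a higher level in slice 1.

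Most members were not detected in the very tip. No count was found in either library of slice 1 for 40 of the 70 members (57.1%), against 392 of the 7185 other front genes (5.46%). A count was present for 26 members in slice 1 of root B and for 22 in slice 1 of root A, at a depth where 3 counts equal 2.63 and 2.85 CPM. Slice 1 of root A was the sparser library, with counts for 13804 genes and 75.4% of the other front genes, against 17713 and 92.3% in root B. Detection also depends on expression level, which was not matched between members and other front genes. Silence in slice 1 is favoured by the demand that slice 1 be no higher than slices 2 to 4, which both sets had to meet. In the next slice 68 members had a count in root B and 68 in root A.

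**Figure D1:**
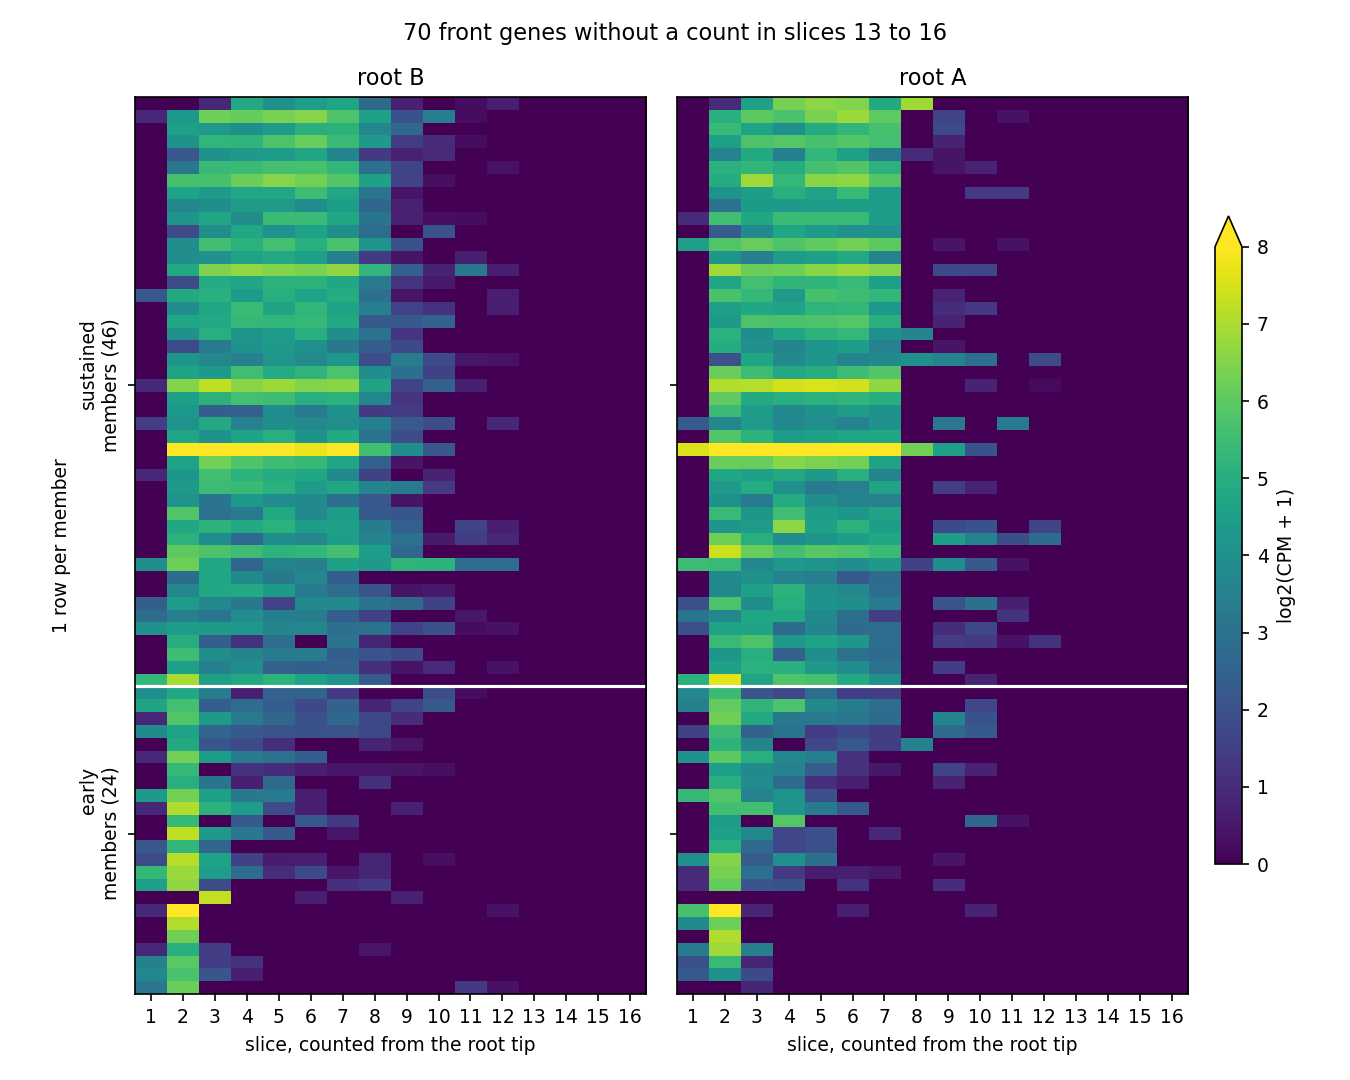
Level of each member by slice (x axis, counted from the tip) in root B (left) and root A (right), with 1 row per member and colour for log2(CPM + 1). The 46 sustained members are coloured from slice 2 to slice 7 or 8 and fade behind it, the 24 early members are brightest in slice 2, and slice 8 of root A is nearly empty.

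Behind the tip the members followed 2 courses. Some were high in slice 2 and all but gone a few slices later, and the others still held much of their level in slices 5 to 7. The mean over slices 5 to 7 as a percentage of the mean over slices 2 to 4 separates them, with a limit of 30% that was set after the values were seen. It gave 24 early members (median 3.51%, highest 24.7%) and 46 sustained members (37.0% to 208%, median 94.8%). Of the sustained members, 22 were as high in slices 5 to 7 as in slices 2 to 4, or higher. The early and sustained members had similar front levels, with medians of 22.7 and 20.9 CPM. No count in slice 1 was found for 7 of the 24 early members and for 33 of the 46 sustained ones.

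The early members formed a short pulse at slice 2. Their summed level in root B was 175 CPM in slice 1, 2770 in slice 2, 360 in slice 3, 85.2 in slice 4 and 49.0 in slice 5. The sum in root A was 177 CPM in slice 1, 1895 in slice 2, 247 in slice 3, 216 in slice 4 and 72.1 in slice 5. In both roots slice 2 held most of it, and by slice 7 the sum was down to 18.7 CPM in root B and 19.5 CPM in root A. Slice 2 was the highest slice for 23 of the 24 in root B, for 21 in root A and for 21 in both. The pulse did not rest on a single gene: without the member of highest level the slice 2 sums were 1549 CPM in root B and 1175 CPM in root A, against 360 and 246 CPM in slice 3. Per gene, the median early member stood at 255% of its own mean over slices 2 to 4 of both roots in slice 2 of root B and at 31.6% in slice 3. The values in root A were 211% and 28.1%. Since slices 1 to 4 chose the members, these values are descriptive.

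The member that contributed most to the pulse was Zm00001d038740, the second highest of the 70 at the front and one of the 4 genes named by a fixed rule. Slice 2 had 1221 CPM in root B and 720 CPM in root A, which were 44.1% and 38.0% of the early sums there. Slice 1 had 0.877 CPM in root B and 50.4 CPM in root A, and slice 3 had 0 and 0.817 CPM. Over all of slices 5 to 8 it gave 1 count, and over slices 9 to 12 it gave 2, against 2172 counts in slices 1 to 4. The gene with the next identifier number, Zm00001d038741, had slice 2 levels of 75.5 CPM in root B and 132 CPM in root A, and no count in any other library. Zm00001d037032 had a like course, with slice 2 levels of 133 CPM in root B and 74.4 CPM in root A, 13.3 CPM in slice 1 of root A and no count elsewhere. The last 2 were picked out after their values were seen. For these 3 genes the signal in both roots sat in 1 slice, with at most 50.4 CPM in the slice before it and under 1 CPM in the slice behind.

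The early set also held members whose level came from 1 library. Zm00001d046916 had 153 CPM (179 counts) in slice 3 of root B, 0 counts in slice 3 of root A, and at most 1 count in each of slices 5 to 8 of either root. It was the only member removed by the filter on low counts, so 69 of the 70 were tested, and it was picked out for that reason. Zm00001d052592, named by the rule, had 72.9 CPM in slice 2 of root B and 0 in slice 2 of root A, and that library gave 89.3% of its front level. These 2 members have a front level in root B with no like level in root A.

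**Figure D2:**
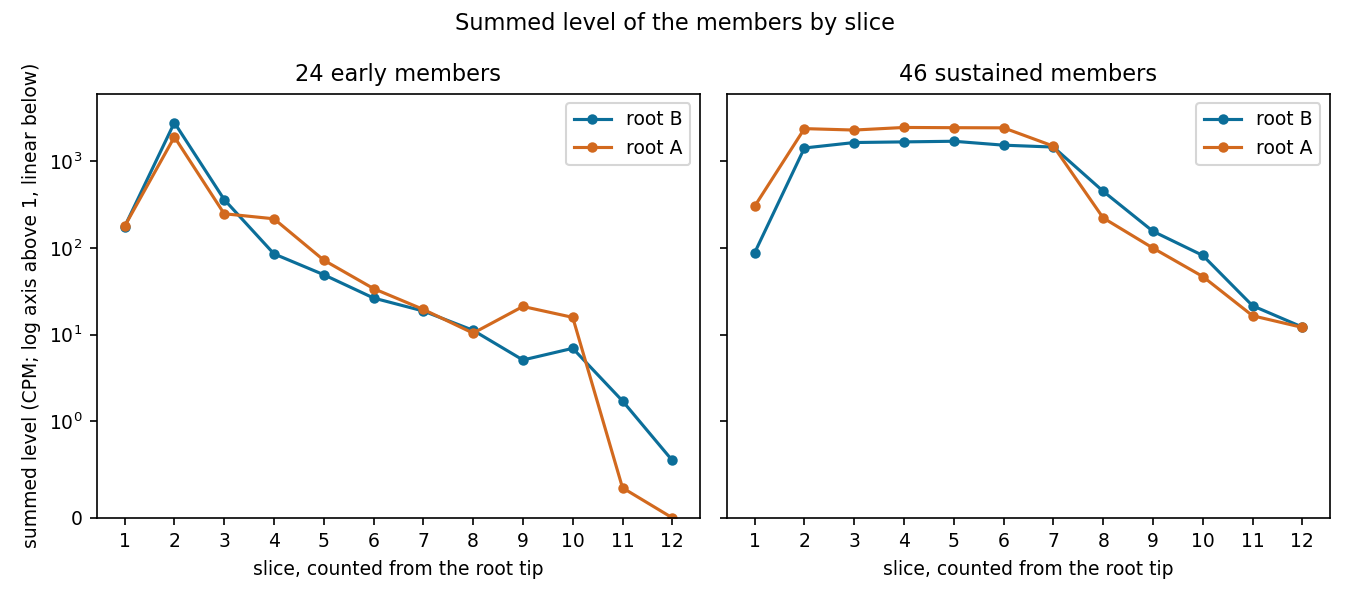
Summed level (CPM, log axis above 1 and linear below) of the early members (left) and the sustained members (right) by slice from 1 to 12, with a line for each root. The early sum peaks in slice 2 in both roots, at 2770 CPM in root B and 1895 CPM in root A. The sustained sum stays between 1414 and 2437 CPM from slice 2 to slice 7, with root A already down to 1485 CPM in slice 7, and then falls in both roots.

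The sustained members held a plateau from slice 2 to slice 7 in root B, and to slice 6 in root A, where slice 7 was lower. In root B their summed level was 87.7 CPM in slice 1, 1414 in slice 2, 1634 in slice 3, 1662 in slice 4, 1690 in slice 5, 1523 in slice 6 and 1449 in slice 7. In root A it was 301 CPM in slice 1, 2363 in slice 2, 2275 in slice 3, 2437 in slice 4, 2422 in slice 5, 2412 in slice 6 and 1485 in slice 7. The step from slice 1 to slice 2 was the largest change in CPM between neighbouring slices in both roots. Within the plateau members peaked in different slices: slice 2 was the highest for 11 members in root B and 12 in root A, slice 3 for 9 and 10, slice 4 for 9 and 9, and slice 6 for 7 and 10. For 30 of the 46 the highest slices of both roots were the same or neighbours. All 46 had a count in both libraries of slice 7.

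Behind slice 7 the sustained members went down within about 2 slices. In root B the sum was 448 CPM in slice 8, 155 in slice 9, 81.7 in slice 10, 21.5 in slice 11 and 12.2 in slice 12. In root A it was 221 CPM in slice 8, 99.3 in slice 9, 46.7 in slice 10, 16.5 in slice 11 and 12.1 in slice 12. Slice 9 thus held 10.7% of the slice 7 sum in root B and 6.69% in root A, and without the member of highest level 12.0% and 6.46%. By median level, the sustained members had 22.8 CPM in slice 7 and 2.04 CPM in slice 9 of root B, and 21.2 and 0 CPM in root A. The median level of the other front genes in slice 9 was 70.7% of that in slice 7 in root B and 66.0% in root A. Silence at the back and the split on slices 5 to 7 both favour a larger fall in the sustained members. In slice 8 of root B the sustained sum stood at 30.9% of slice 7, with 45 of 46 members lower, while the median of the other front genes stood at 91.9%. In slice 8 of root A the sustained sum stood at 14.9%, in a library where the median of the other front genes was at 2.92%, so slice 8 is read from root B alone.

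For most sustained members slice 7 was the last slice with at least 50% of the front level, in each root. A slice before it could lie below that level. The last slice in which a sustained member kept at least 50% of its own mean over slices 2 to 4 of both roots was slice 7 for 30 of the 46 in root B and for 31 in root A. It was slice 7 or before in both roots for 39 of the 46 and within 1 slice between the roots for 40. The split into early and sustained members used slices 5 to 7, which favours slice 7 here. The mean of both roots also lets root A pass in slice 7 after a fall, from a sustained sum of 2412 CPM in slice 6 to 1485 CPM. Since slice 8 of root A had counts for few genes of any kind, the limit in root A can lie in slice 8 as well. Low counts trailed on: in root B 46 of the 70 members had a count in slice 9, 27 in slice 10, 15 in slice 11 and 14 in slice 12, and in root A 28, 21, 10 and 5 had one. The last slice with a count was slice 9 for 18 members in root B and slice 7 for 21 members in root A, the most frequent value in each.

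**Figure D3:**
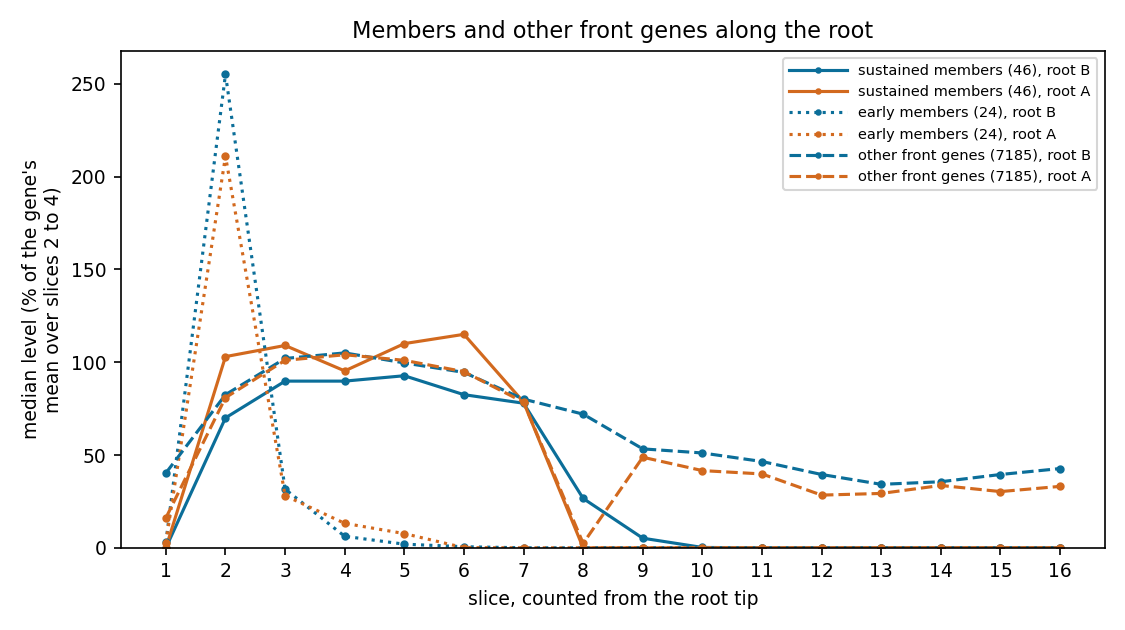
Median level by slice (x axis, counted from the tip) as a percentage of each gene's mean over slices 2 to 4 of both roots, for sustained members, early members and other front genes, with a line for each root. In slice 9 of root B the sustained median is at 5.19% and that of the other front genes at 53.3%, and the dip of the other front genes in slice 8 of root A is the library with counts for few genes.

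Slices 5 to 12 took no part in choosing the members, so the change across them was tested. A gene that is on in slices 1 to 4 and off from slice 13 has to fall somewhere between, so the direction is largely set by the choice, and the test bears on where the fall lies. In slices 9 to 12 against slices 5 to 8, 48 of the 69 members tested were lower and none was higher (edgeR quasi-likelihood F test, Benjamini-Hochberg adjusted p under 0.05 over 19587 genes). No member was higher at an unadjusted p under 0.05 either, in edgeR or in DESeq2. Over all genes tested 21.1% were lower by the same test, and among the other front genes 2884 of 7185 (40.1%). The 48 comprised 43 of the 46 sustained members and 5 early members. DESeq2 called 49 members lower. Both fits drew the spread from all libraries, and so also from the slices that chose the members. Fitted on slices 5 to 12 alone, edgeR called 44 members lower. No share of all genes is given for the 49 and the 44.

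The fall was larger in the members than in front genes at large, which the demand for silence at the back favours in size as well as in direction. The mean over slices 9 to 12 was compared with the mean over slices 5 to 8, with 3 counts over the 8 libraries (0.107 CPM) standing in where slices 9 to 12 held 3 counts or fewer, as for 17 members, so that those falls are understated. For the 62 members with more than 3 counts in slices 5 to 8 the median log2 ratio was −4.89, with a range from −8.45 to 0.12. The median was −5.77 for the 46 sustained members, −2.84 for the 16 early members with a ratio, −0.80 for the other front genes and −0.19 for all genes tested. Sustained members were set apart by their level in slices 5 to 7, so their larger fall follows from that split and is no finding. At least 8-fold lower were 47 of the 62 members (75.8%), 7.05% of the other front genes and 5.65% of all genes tested. A ratio at or below the member median was found for 81 of the other front genes (1.13%). The median member stood at 0.269 CPM in slices 9 to 12 and 11.8 CPM in slices 5 to 8, and 11 members had no count at all in slices 9 to 12. Every library of slices 9 to 12 lay below every library of slices 5 to 7 for 42 of the 70 members, against 15.6% of all genes tested and 33.3% of the other front genes. Slice 8 was left out of this count after its library of root A was seen. With slice 8 it held for 3 members. The share of all genes with slice 8 kept was not counted, so the 3 cannot be set against it.

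Most members that missed the call lacked counts in some slice of the earlier block already. Of the 21 tested members not called, 18 had no count in either root in at least 1 of slices 5 to 8, and a test that averages slices on the log scale cannot call such a gene lower. Treating the 8 libraries of a block of 4 slices as 1 group, added once the data had been seen, removes this limit. It called 49 members lower against 20.2% of all genes tested, 44 of them among the 48. The same limit acts on slice 8: without the library of root B that slice rests on the sparse library of root A, and the count fell to 6, while it was 46 without the library of root A, 50 without both, and 50 by blocks without the library of root B. In the remaining members, Zm00001d025148, Zm00001d043581 and Zm00001d046958, each with counts in all 4 slices, the difference missed the threshold. Their adjusted p in the same edgeR test was 0.42, 0.0956 and 0.252.

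**Figure D4:**
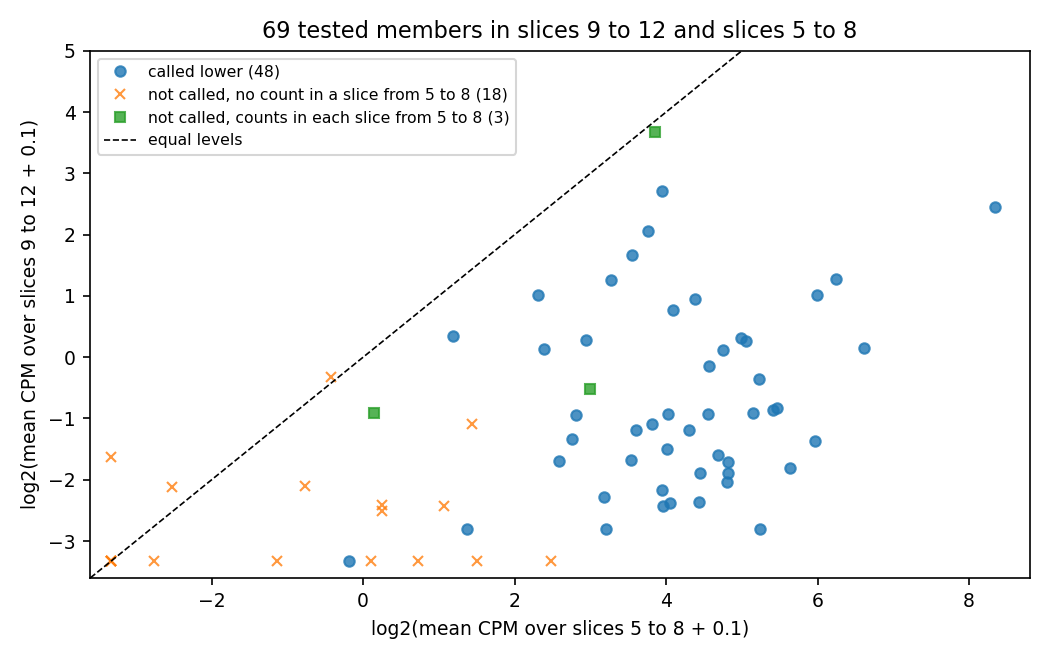
Mean level over slices 9 to 12 (y axis) against mean level over slices 5 to 8 (x axis), both as log2(CPM + 0.1), for the 69 tested members, with marks for the 48 called lower, the 18 not called that lack a count in a slice from 5 to 8, and the other 3. Of the 69 marks 62 lie below the dashed line of equal levels, 4 lie on it for members with no count in either block, and 3 lie above it.

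The fall was found in each root taken alone. With the 4 slices of a block standing in as replicates, 41 members were lower in root B (against 6.80% of all genes tested) and 45 in root A (against 15.2%), 39 of them in both (edgeR quasi-likelihood test, Benjamini-Hochberg adjusted p under 0.05). Tested against each other, the changes of the roots differed for 0 members and 0 of all genes tested in edgeR (percent called 0). At an unadjusted p under 0.05 the test found 2 members and 1164 genes, and no other tool was run for it. This does not show that the change was alike in the roots.

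The rule for named genes took the called members with the 2 lowest fitted changes, a measure that averages slices on the log scale and gives weight to slices at 0, so they need not have the highest ratios of means. Zm00001d025873 had the highest front level of all members. In root B its level was 0 CPM in slice 1, then 262, 299, 355, 311, 218 and 273 CPM in slices 2 to 7, 46.7 in slice 8, 14.6 in slice 9, 3.47 in slice 10 and 0 in slices 11 and 12. In root A it was 184 CPM in slice 1, then 496, 665, 815, 708, 664 and 285 CPM in slices 2 to 7, 76.9 in slice 8, 21.8 in slice 9, 3.01 in slice 10 and 0 in slices 11 and 12. Both roots dropped between slices 7 and 9 and reached 0 in the same slice. The level in slice 8 of root A is from the sparse library and is not set against root B. The mean was 5.36 ± 8.27 CPM over slices 9 to 12 and 323 ± 244 CPM over slices 5 to 8 (SD over 8 libraries of 2 roots), 60.2-fold lower, with an adjusted p of 6.35e-06 in edgeR's quasi-likelihood test.

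Zm00001d013566 had no count in slice 1 of either root. In root B it had 50.0, 50.5, 71.8, 91.7, 77.3 and 57.4 CPM in slices 2 to 7, 23.1 in slice 8, 2.04 in slice 9, 0.248 in slice 10 and nothing behind. In root A it had 29.8, 114, 39.6, 95.4, 98.2 and 56.7 CPM in slices 2 to 7 and no count from slice 8 on. The highest level was in slice 5 in root B and slice 3 in root A, and the last count was in slice 10 in root B and slice 7 in root A. The mean was 0.286 ± 0.713 CPM over slices 9 to 12 and 62.5 ± 35.7 CPM over slices 5 to 8 (SD over 8 libraries of 2 roots), 219-fold lower, with an adjusted p of 1.1e-09 in edgeR's quasi-likelihood test. Its 7 counts in slices 9 to 12 were all from root B, against 974 counts in slices 5 to 8.

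Steps of 2 slices called the most members lower in slices 9 and 10 against slices 7 and 8, with all libraries kept. That step pools slice 7 with slice 8, where the sustained sum of root B was already at 30.9% of slice 7. It therefore cannot place the fall before or behind slice 8. In slices 9 and 10 against slices 7 and 8, 26 members were lower, against 3.47% of all genes tested and 6.69% of the other front genes. All 26 were sustained, which largely follows from a split that used slice 7, where the median early member had no count. With blocks as groups the count was 33 members (4.51% of all genes), 36 without slice 8 of root A, and in the test by slices it was 3 without slice 8 of root B. In slices 7 and 8 against slices 5 and 6, 8 members were lower, against 1.35% of all genes tested. Leaving out slice 8 of root B gave 20, leaving out slice 8 of root A gave 5, and the count was 1 to 5 without any 1 library of slices 5, 6 or 7, 4 when slices 5 to 12 alone were fitted, and 3 with slice 7 counted as 1. It was 0 without slice 8 of both roots and 0 with blocks as groups (0.562% of all genes), where 14 members were lower at an unadjusted p under 0.05. At that unadjusted level 29 members were lower in the test by slices, against 3614 of 19587 genes in either direction. DESeq2 gave 19 members at that level. The number over all genes is not given for DESeq2 or for blocks as groups.

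In slices 11 and 12 against slices 9 and 10, 4 members were lower, against 1.66% of all genes tested. It was 7 with root as a block, 11 in DESeq2, 1 with slices 5 to 12 alone fitted and 1 with blocks as groups (1.01% of all genes). Among these alternatives the share of all genes is given for the last only. With 1 library of slice 7, 9 or 11 left out, or slice 10 of root B, or slice 12 of root A, the count was 0 to 2. With all libraries kept, 16 members were lower at an unadjusted p under 0.05, against 3476 of 19587 genes in either direction. For 39 of the tested members at least 1 of slices 9 and 10 held no count in either root, and this test cannot call them lower. All of these counts are from edgeR's quasi-likelihood test with Benjamini-Hochberg adjustment unless DESeq2 is named.

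A small part of the members stayed on longer. A mean of at least 1 CPM over slices 9 to 12 was found for 17 members and of at least 3 CPM for 5. At least 50% of the front level behind slice 8 in either root was found for 4, all picked out here for that. Zm00001d025148 is the clearest. In root B it had 18.5 CPM in slice 8, 36.0 in slice 9, 35.0 in slice 10, 6.24 in slice 11 and 6.25 in slice 12, and in root A 1.90, 13.7, 3.77, 0.311 and 0 CPM in the same slices. Its level in slices 9 and 10 of root B was above that in slices 5 to 8 of either root (10.2 to 23.0 CPM in slices 5 to 7). The mean was 12.7 ± 14.7 CPM over slices 9 to 12 and 14.3 ± 6.57 CPM over slices 5 to 8 (SD over 8 libraries of 2 roots), which gave −0.54 ± 0.508 on the log2 scale (SE) and an adjusted p of 0.42 in edgeR. It was lower in slices 11 and 12 than in slices 9 and 10 (−2.82 ± 0.726, edgeR adjusted p = 0.0297).

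The other 3 late members were called lower, with smaller fitted changes than the rest of the 48. Zm00001d043590 had 6.47 ± 7.07 CPM over slices 9 to 12 and 15.3 ± 7.92 CPM over slices 5 to 8 (log2 change −1.37 ± 0.512, edgeR adjusted p = 0.0317). Slices 9 and 10 had 7.13 and 0.496 CPM in root B, against 21.4 and 11.3 CPM in root A. The call was lost in DESeq2 (adjusted p = 0.106) and with blocks as groups (adjusted p = 0.168), and without slice 8 of root B the fitted change was 0.34. Zm00001d020021 had 3.06 ± 3.67 CPM over slices 9 to 12 and 11.6 ± 5.17 CPM over slices 5 to 8 (−2.22 ± 0.57, edgeR adjusted p = 0.00204), with 9.03 CPM still in slice 11 of root A. Zm00001d027965, the member with the lowest front level, had 4.09 ± 4.28 CPM over slices 9 to 12 and 13.4 ± 5.04 CPM over slices 5 to 8 (−2.33 ± 0.535, edgeR adjusted p = 0.000778). All SDs are over 8 libraries of 2 roots.

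A higher mean in slices 9 to 12 than in slices 5 to 8 was found for 4 members, 3 of them tested, with at most 8 counts each in slices 9 to 12. The 2 highest fitted changes by the rule belonged to Zm00001d052592, with 8 counts in slices 9 to 12 and 0 in slices 5 to 8, and Zm00001d038740, with 2 counts and 1 count. Counts this low give no fold, and neither gene was called.

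**Figure D5:**
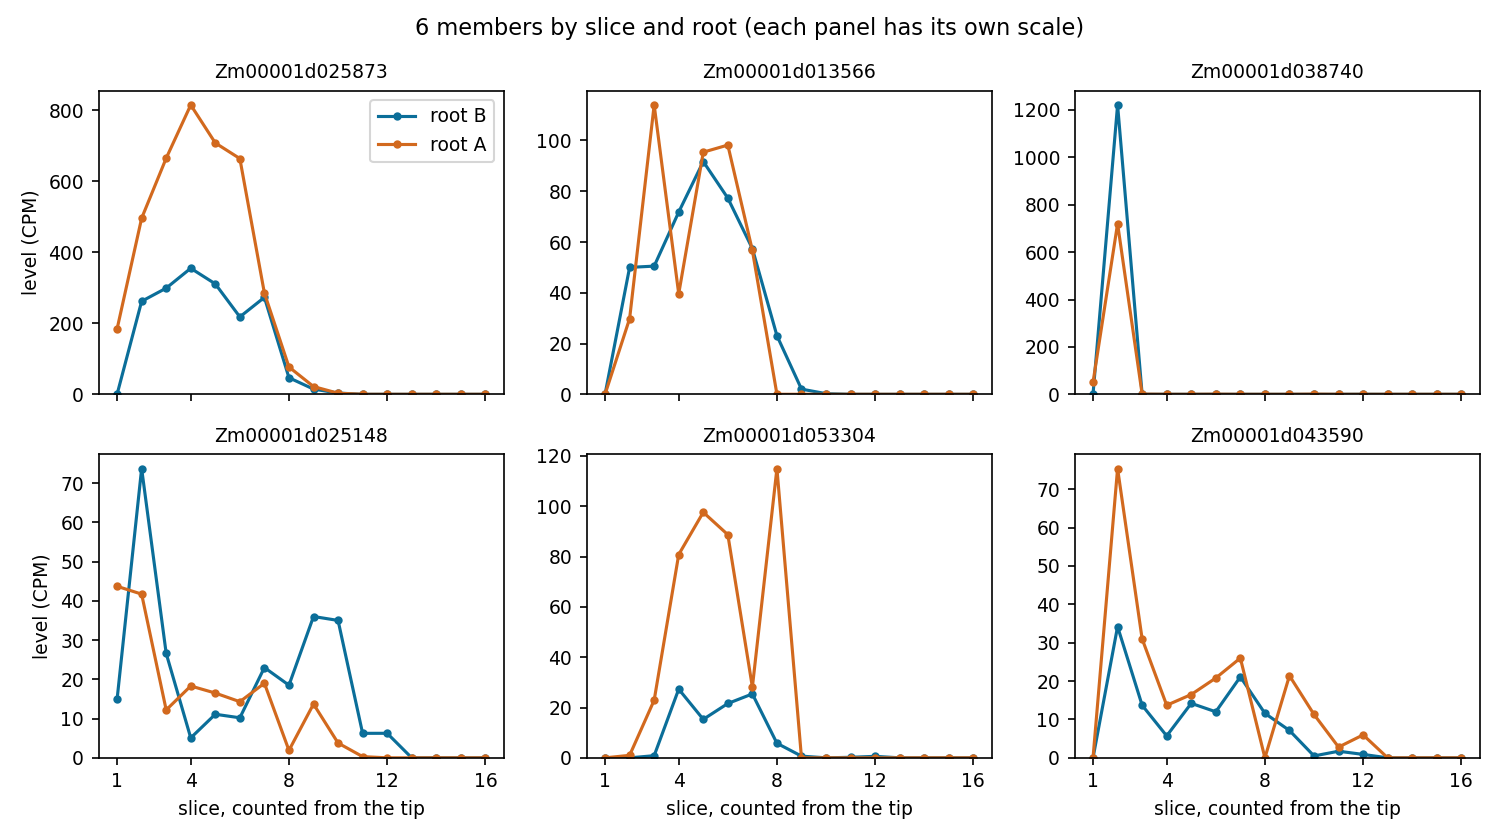
Level (CPM) by slice in root B and root A for 6 members, each panel with its own scale. Zm00001d025873 and Zm00001d013566 hold a plateau to slice 7, and Zm00001d038740 is confined to slices 1 and 2 but for single counts. Zm00001d025148 has 36.0 and 35.0 CPM in slices 9 and 10 of root B, and Zm00001d043590 has 21.4 CPM in slice 9 of root A. In slice 8 Zm00001d053304 has 5.79 CPM in root B and 115 CPM in root A, the latter from the sparse library.

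Between the roots at matched slices, 4 members were lower in root B and 1 was higher, 5 of 69 against 10.0% of all genes tested, which is no result about the members as a set. Each side is 1 root. The level of Zm00001d025873 was lower in root B in each of slices 1 to 8 (log2 difference −1.29 ± 0.323, edgeR adjusted p = 0.00916). The other 4 reached a front mean of 10 CPM in 1 of the roots only, so the root that is high also brought them into the set, and their values are given with no test.

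Zm00001d053304 had a front mean of 7.05 CPM in root B and 26.2 CPM in root A. In slices 5 to 8 it had 15.3, 21.6, 25.4 and 5.79 CPM in root B, against 97.6, 88.7, 28.1 and 115 CPM in root A. It was 1 of the 7 members counted in slice 8 of root A, the sparse library, so the 115 CPM there is not read as a level. Its mean over slices 5 to 7 was 208% of that over slices 2 to 4, the highest of all members. Zm00001d043581 had a front mean of 9.07 CPM in root B and 28.6 CPM in root A. In slices 5 to 8 it had 6.33, 0, 7.41 and 0.771 CPM in root B, against 23.8, 17.9, 6.49 and 0 CPM in root A. The other 2 were early members whose difference lay in slice 2. Zm00001d014219 had 32.5 CPM there in root B and 114 CPM in root A, and Zm00001d052592 had 72.9 CPM in root B and 0 in root A. In DESeq2, and with an older dispersion step of edgeR, 1 of the members was called, and without slice 8 of either root the count was 9. The sustained sum in slices 2 to 6 was 1414 to 1690 CPM in root B and 2275 to 2437 CPM in root A. In slice 7, where the libraries of both roots were nearly alike, it was 1449 CPM in root B and 1485 CPM in root A. These sums are descriptive: slices 2 to 4 chose the members, slices of 1 root share a plant, and some summed members entered through root A.

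Genes outside the set also correlated with the mean member profile over slices 5 to 12. A correlation takes no account of the size of the fall. Among 12149 other genes with at least 10 CPM over slices 1 to 4, 649 had a Pearson correlation of at least 0.9 with the mean member profile, in log2(CPM + 1) over the 16 libraries of slices 5 to 12. The highest was 0.995 and the third 0.991; they are given as counts since the files hold no names. Of the members themselves 39 reached 0.9, and 4 had no count in slices 5 to 12 and so no value. The points share libraries and depth, and the sparse slice 8 of root A is among them, so these correlations are descriptive. By identifier number, which is not a genome coordinate, 1 pair of members was consecutive (Zm00001d038740 and Zm00001d038741) and 5 neighbouring pairs lay within 10 numbers.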

How the data were processed

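The deposited table holds raw counts, whole numbers per gene identifier, for 32 RNA-seq libraries; the authors used Trimmomatic, kallisto 0.43 and DESeq2, per the submitters' processing notes, which give no roles. Genome build, annotation, use of strand and the step from transcripts to genes were not given in the sources used here; reads of near-identical genes may be divided between copies. Libraries were made with an amplifying kit, per the labels' protocols, so counts are not independent molecules. No columns were without a sample (0).

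The members and lists were chosen with earlier results of these data known. CPM is the count over the column total times 1000000. Tests used edgeR 4.0.16 in R 4.3.3 on all 32 libraries, with 16 slices as groups: TMM scaling, filterByExpr (minimum count 10, minimum total 15; 19587 genes kept), a robust quasi-likelihood fit with the newer dispersion step, and Benjamini-Hochberg adjustment over all genes tested. Roots were compared with slice as a covariate, and in their change with each root's blocks of 4 slices as 8 groups. DESeq2 1.42.0 was an alternative. The steps were tested on simulated data. Libraries of 1 letter come from 1 root per the labels, so letters pair the samples; deviations of 2 slices of a root correlated at a median of 0.143 over 120 pairs of slices (−0.02 to 0.376).

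Named genes were those with the 2 lowest changes among called members with at least 10 CPM in slices 5 to 8, and the 2 highest among tested members, in slices 9 to 12 against 5 to 8; further genes were picked after their values were seen, as stated there. No gene list was tested, since 0 identifiers matched the table of 49888 reference genes.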

Additional observations from a re-analysis of the deposited data

How the results depend on the processing

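The count of 48 members lower in slices 9 to 12 than in slices 5 to 8 was 44 to 50 under the alternatives that left out no single library, and 6 to 48 when 1 library was left out, the 6 without slice 8 of root B. For slices 7 and 8 against 5 and 6 the count of 8 was 4 with slices 5 to 12 alone, 3 with the older dispersion step or slice 7 counted as 1, 0 without slice 8 of both roots, 0 with blocks as groups with or without a slice 8 library, and 1 to 20 with 1 library left out. For slices 9 and 10 against 7 and 8 the count of 26 was 3 to 32 with 1 library left out. For slices 11 and 12 against 9 and 10 the count of 4 was 8 with no filter, 7 with the replicate block, 1 with slices 5 to 12 alone, 2 with slice 7 counted as 1, 1 with blocks as groups (also without slice 8 of root B), 11 with DESeq2 and 0 to 6 with 1 library left out. The replicate block by root moved no other count by over 1.5 times (49, 12 and 30). The 5 members that differed between the roots became 1 with the older step, 11 without slices 1, 8 and 12 of root A, 8 without slice 8 of both roots, 1 with DESeq2 and 4 to 9 with 1 library left out. The number of members was 128 with up to 3 counts at the back, 37 at 20 CPM, 124 at 5 CPM, 124 in root A alone and 118 in root B alone. The log2 change of Zm00001d043590 ran from −2.10 to 0.34 with 1 library left out, the 0.34, a reversal, without slice 8 of root B. Of 208 counts with 1 library left out, 188 stayed within 1.5 times, as did 42 of 65 under other alternatives. Depth limits silence at the back to under 0.154 CPM over 8 libraries. Except for the empty slices described above, the cause of these shifts was not tested.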
